A study of Mus musculus with 4 samples.

Results

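In cultures of mouse embryonic fibroblasts (MEFs), connective-tissue cells grown from embryos, 2 responses to an interferon were set against each other: the response to IFNa in a cell line that lacks Stat3 (STAT3KO) minus the response in wild-type (WT) cells. The 4 groups were STAT3KO with IFNa, STAT3KO untreated, WT with IFNa and WT untreated, all labelled as C57BL/6 MEF cell lines. IFNa, a type I interferon, was given at 1000 U per ml for 2 h. Each group was measured on 1 Illumina bead array, and the labels place all 4 arrays on a common chip. The labels do not say which part of Stat3 is missing, or whether each line is 1 clone. For each probe, a response is the log2 normalized intensity with IFNa minus that without, and the difference of responses is the STAT3KO response minus the WT response. A positive difference means that the response in STAT3KO cells lay above that in WT cells. That can be a larger rise, a smaller fall, or a rise against a fall. Of 46632 probes, the 13884 (29.8%) with a detection score above 0.99 on all 4 arrays were members. They comprised 10763 probes of 8148 named genes, each gene represented by its brightest member probe, and 3121 probes without a gene name. The lowest detection score inside this limit was 0.99013 and the highest outside it was 0.98968. Another 5772 probes were detected on some arrays only.

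With 1 array per group, the difference of responses has 0 residual degrees of freedom. No test was possible and no p-value is given, so precision is limited by there being 1 array per group. A probe or gene is counted as called where its difference is at least 2-fold, that is at least 1 or at most −1 on the log2 scale. The only internal measure of precision is the spread between probes of the same gene on the same arrays. Over 2055 genes with at least 2 member probes, the SD of a probe from its pair was 0.25 on the log2 scale, and 91.2% of the pairs differed by less than 1.5-fold. That spread is close to the SD of the difference over all genes, 0.30. Across the 2055 genes, the differences at the 2 probes correlated only weakly (r = 0.23). In bulk RNA, fewer responding cells and a smaller response per cell cannot be told apart.

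Type I interferons bind a receptor at the cell surface and activate the kinases JAK1 and TYK2. Their activity leads to the assembly of ISGF3, a factor that contains IRF9 and binds the interferon-stimulated response element (ISRE) in the promoters of antiviral genes. STAT3 is also phosphorylated downstream of this receptor. It is known as a mediator of IL-6 family cytokines and has been described as a modulator of interferon-induced transcription.

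Stat3 itself was measured by 2 member probes. The brighter probe had intensities of 109.6 in STAT3KO with IFNa, 122.4 in STAT3KO untreated, 1340 in WT with IFNa and 1118 in WT untreated. The other had 123.8 and 117.3 in STAT3KO cells, against 929.8 and 920.1 in WT cells. STAT3KO minus WT, this was −3.61 and −3.19 on the log2 scale for the brighter probe and −2.91 and −2.97 for the other, and both still passed the detection limit in STAT3KO cells. Their differences of responses were −0.42 and 0.06. Vim, which encodes the mesenchymal filament vimentin, was bright on every array, at 37050 and 32585 in STAT3KO cells and 31712 and 39415 in WT cells. Thy1, a fibroblast surface marker, was not detected in STAT3KO cells (68.9 with IFNa, 67.4 untreated), against 13939 and 11524 in WT cells. Of 17 listed fibroblast markers with a probe, 12 and 13 were detected in STAT3KO cells, against 16 and 15 in WT cells. Detected markers could still differ in level. Pdgfra measured 121.4 and 143.8 in STAT3KO cells, against 1218 and 1321 in WT cells. Col1a1 measured 260.1 and 302.8, against 3139 and 3332. Over the 13 fibroblast markers among the member genes, the median of STAT3KO minus WT was −0.46 with IFNa and −0.69 untreated on the log2 scale. Of 16 macrophage and leukocyte markers, 2 were detected on each STAT3KO array, against 1 on each WT array. Of 11 endothelial markers, 5 and 5 were detected in STAT3KO cells, against 5 with IFNa and 4 untreated in WT cells, and of 12 epithelial markers 4 and 5, against 3 and 3. The defining markers Ptprc (leukocytes), Pecam1 (endothelium), Epcam and Cdh1 (epithelium) were detected on no array, while the keratin genes were each detected on 1 array, Krt8 in STAT3KO untreated (103.1) and Krt18 in WT untreated (89.8). Beyond Stat3, the lines thus differed in fibroblast markers, and the part of that in the differences of responses was not tested. Arrays of the same line correlated at r = 0.991 (STAT3KO) and 0.993 (WT) across the 13884 member probes, against 0.934 to 0.938 between lines.

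Most genes had a difference near 0. The median difference over the 8148 genes was −0.03, with quartiles of −0.20 and 0.16, and 44.9% lay above 0. At 2-fold, 31 genes (0.38% of genes) were higher and 14 (0.172%) were lower in the difference of responses. For probes these counts were 81 (0.583%) and 22 (0.158%), and 34 and 8 of them carried no gene name. The split between higher and lower probes depended on the scaling. It was 804 and 195 after background subtraction (offset 16) and quantile normalization, 90 and 9 after quantile normalization alone, 140 and 7 after cyclic loess, and 108 and 1854 with each array scaled to its 75th percentile. These 4 alternatives start from the non-normalized table, in which the WT untreated column already holds normalized values. They therefore set 3 arrays on their first scale beside 1 array that had been normalized, which could change these counts, and the part of that was not tested. The STAT3KO response itself passed 2-fold upward for 44 genes (0.54%), against 23 (0.282%) for the WT response, and downward for 3 genes (0.0368%), against 2 (0.0245%). The probes nearest the 2-fold limit were Rpl39 at 1.0019 inside it and Lgals9 at 0.9995 outside it, and, on the lower side, Ccl7 at −0.997 outside it.

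The 45 called genes fell into 3 patterns. In the first, 11 genes were higher with IFNa in both lines and more so in STAT3KO cells. In the second, 33 genes had responses of opposite sign, 20 of them upward in STAT3KO cells and 13 upward in WT cells. In the third, Serpina3f was higher with IFNa in both lines and more so in WT cells. All 9 called interferon genes belonged to the first pattern, and no interferon gene to the second. Interferon genes made up only 90 of the 8148 genes, so by that share few or none would fall among the 33.

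Of the 11 genes called higher with a rise in both lines, 4 have in the RefSeq promoter window (GRCm38.p6, from 250 bases before to 50 after the gene start) the letters GAAA, then any 2 bases, then GAAA again on either strand, the core of the ISRE. These are Clec2d, Bst2, Apol9a and Socs1, and their windows are shown because the ISRE is the element that ISGF3 reads. The windows lie at chr6:129180365-129180664 (plus strand) for Clec2d, chr8:71537423-71537722 (minus strand) for Bst2, chr15:77411031-77411330 (minus strand) for Apol9a and chr16:10785487-10785786 (minus strand) for Socs1. Each is written 5′ to 3′ along the gene's strand, and capitals mark the matches. In Apol9a the match is on the opposite strand and so reads TTTC on either side of the free bases.
Clec2d: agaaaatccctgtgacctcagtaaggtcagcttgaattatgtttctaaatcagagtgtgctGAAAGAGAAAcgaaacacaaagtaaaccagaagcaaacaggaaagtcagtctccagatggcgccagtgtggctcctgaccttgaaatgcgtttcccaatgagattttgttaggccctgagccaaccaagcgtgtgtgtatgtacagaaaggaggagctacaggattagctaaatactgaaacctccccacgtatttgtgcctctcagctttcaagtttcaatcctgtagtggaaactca
Bst2: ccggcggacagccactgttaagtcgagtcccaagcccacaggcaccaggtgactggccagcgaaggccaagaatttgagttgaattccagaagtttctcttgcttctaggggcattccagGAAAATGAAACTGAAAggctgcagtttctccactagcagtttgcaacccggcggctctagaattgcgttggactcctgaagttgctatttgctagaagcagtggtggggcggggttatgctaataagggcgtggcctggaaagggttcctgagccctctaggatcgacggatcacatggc
Apol9a: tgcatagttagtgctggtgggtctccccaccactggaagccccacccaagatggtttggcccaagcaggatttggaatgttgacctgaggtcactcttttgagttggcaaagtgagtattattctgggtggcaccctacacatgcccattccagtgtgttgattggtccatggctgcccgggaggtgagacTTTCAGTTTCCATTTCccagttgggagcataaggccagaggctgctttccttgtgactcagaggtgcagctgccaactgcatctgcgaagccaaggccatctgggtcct
Socs1: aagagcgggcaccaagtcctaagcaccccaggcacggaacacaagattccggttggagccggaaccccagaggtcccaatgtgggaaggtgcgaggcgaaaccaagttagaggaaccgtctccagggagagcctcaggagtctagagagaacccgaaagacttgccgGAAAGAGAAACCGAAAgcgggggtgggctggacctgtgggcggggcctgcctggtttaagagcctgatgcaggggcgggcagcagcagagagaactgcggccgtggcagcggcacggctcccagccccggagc
Bst2, Apol9a and Socs1 each hold 2 overlapping matches, which begin 130 and 124 bases before the gene start in Bst2, 59 and 53 before it in Apol9a, and 83 and 77 before it in Socs1. The match in Clec2d begins 189 bases before the start. Apol9a has another listed start whose window overlaps the printed one and holds the same matches.

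The share with an ISRE match was 4 of 11 genes (36.4%) among those called higher with a rise in both lines. It was 11 of 29 (37.9%) among the genes with a mean response over both lines of at least 2-fold and a listed promoter. Among the genes with opposite responses it was 1 of 28 with a listed promoter (3.57%). It was 3.30% of 6693 member genes with a listed promoter and 3.99% of all 27025 genes in the promoter table (3.44% of 32851 windows). The letters TTCNNNGAA, the core of the element read by STAT dimers (both strands), were in 3 of the 11 genes (27.3%), 7 of the 29 (24.1%), 4 of the 28 (14.3%) and 9.55% of all 27025 genes. An NF-kB-type match, the letters GGG, any 2 bases and TTTCC (both strands), was in 1 of the 11 genes, Csf1, in 0 of the 28 and in 1.89% of all 27025. Of the 149 windows with both an ISRE and a STAT match, the matches overlapped in 24. These counts describe letters in 300-base windows, not bound sites, and the gene sets were chosen by their responses.

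The antiviral effector Ifit2, whose product binds RNA and restrains translation, had the largest difference of any named gene among the members. Its intensity was 2121 with IFNa and 305.9 untreated in STAT3KO cells, against 838 with IFNa and 582 untreated in WT cells. The STAT3KO line was thus the dimmer of the 2 without IFNa and the brighter with it. The responses were 6.93-fold in STAT3KO cells and 1.44-fold in WT cells, a log2 difference of 2.27. Clec2d, which encodes a C-type lectin-like ligand of a natural killer cell receptor, had the same crossing pattern. It measured 2714 and 259 in STAT3KO cells, against 1352 and 506 in WT cells, a log2 difference of 1.97. Bst2 encodes tetherin, which holds budding virions at the cell surface. It measured 928 and 197 in STAT3KO cells, against 2159 and 936 in WT cells, so that WT cells were brighter under both conditions while the fold was larger in STAT3KO cells (4.72 against 2.31, log2 difference 1.03). Adar encodes an RNA-editing adenosine deaminase. It measured 1487 and 369 in STAT3KO cells, against 588 and 304 in WT cells, a log2 difference of 1.06, and another Adar probe gave 1.43.

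Ifi47 and Irgm1 belong to the immunity-related GTPases, which act on pathogen-containing vacuoles. Ifi47 measured 1111 and 149.6 in STAT3KO cells, against 337.5 and 121.8 in WT cells, a log2 difference of 1.42. Irgm1 had the highest mean response of the 8148 genes detected on all 4 arrays, at 17.1-fold in STAT3KO cells and 9.88-fold in WT cells, a difference of 0.79. Apol9a, an interferon-induced member of the apolipoprotein L family, measured 3157 and 253 in STAT3KO cells, against 618 and 151 in WT cells (12.5-fold against 4.09-fold, difference 1.61). Its neighbour in the family, Apol9b, is near-identical, so that signal from the 2 genes may be shared.

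Further steps of the interferon programme were represented among the called genes by 1 gene each. Irf7, a transcription factor that amplifies interferon production, measured 414.8 and 102.0 in STAT3KO cells, against 192.9 and 102.7 in WT cells. The untreated levels were close and the responses 4.07-fold against 1.88-fold (difference 1.11). Uba7, the enzyme that activates the ubiquitin-like protein ISG15, had the same form, with 716 and 173.4 in STAT3KO cells, against 333 and 177.8 in WT cells (difference 1.14). Psmb10, a catalytic subunit of the immunoproteasome, measured 4186 and 1512 in STAT3KO cells, against 981 and 814 in WT cells. STAT3KO cells were thus brighter under both conditions (difference 1.20, and 0.56 at another probe). The remaining called genes of this pattern were on no interferon list. Socs1, a feedback inhibitor of JAK kinases, measured 659 and 239 in STAT3KO cells, against 305 and 235 in WT cells (difference 1.09, and 0.46 at another probe). Csf1, the macrophage growth factor M-CSF, measured 1134 and 439 in STAT3KO cells, against 2301 and 1802 in WT cells (difference 1.02, and 0.51 at another probe).

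Serpina3f, a serine protease inhibitor, was the only gene called lower that was higher with IFNa in both lines, and it had the lowest difference of all 8148 genes, −1.60. It measured 123.7 and 86.1 in STAT3KO cells, against 596.1 and 136.4 in WT cells. Its responses were 1.44-fold in STAT3KO cells and 4.37-fold in WT cells. It belongs to a cluster of similar Serpina3 genes, so its probe may read more than 1 of them. Among unnamed probes, 4 were called higher with a rise in both lines, with differences of 1.21 to 2.24.

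The interferon genes were also read as a group. Their lists were written with earlier results of these data known, so the lists support nothing on their own. Of 217 genes on 7 joined interferon lists, 178 had a probe, 90 were members and 88 were left out because some array did not detect them. The median difference of the 90 was 0.25, against −0.03 over all genes, and 67 of 90 (74.4%) lay above 0, against 44.9% of all genes. At 2-fold, 9 were higher and 0 lower (0.38% and 0.172% of all genes). At 1.5-fold, 26 were higher and 2 lower, against 2.82% and 1.62% of all genes. Their median response was 0.67 in STAT3KO cells and 0.32 in WT cells on the log2 scale. With each array scaled to its 75th percentile the median became −0.38, but that scaling moved the median of all genes to −0.67. Relative to all genes the interferon median was 0.28 higher, and 0.25 to 0.39 higher under 11 alternatives, the 75th percentile included. The 0.39 came with detection on at least 1 array, where a gene can enter through the array on which it is high. Each of the 7 lists kept its median above that of all genes under the 11 alternatives, except the list of ISGF3 and interferon signalling.

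By role, the 13 antiviral effectors had a median of 0.63, with 12 above 0. Samd9l, a restriction factor for poxviruses (0.90), followed the genes above. So did Samhd1, which depletes nucleotides (0.83, but 0.07 and 0.10 at dimmer probes), and Ifitm3, which hinders virus entry (0.68). Ifitm2, of the same membrane protein family, was the exception at −0.47. Eif2ak2, the double-stranded-RNA kinase PKR, had nearly equal responses, with 4443 and 606 in STAT3KO cells, against 2421.5 and 363 in WT cells (7.33-fold against 6.67-fold). The 18 antigen presentation genes had a median of 0.25, with 16 above 0. After Psmb10 these were led by Nlrc5, a transcriptional activator of class I genes (0.74), H2-D1, a class I heavy chain (0.52), and the proteasome activator Psme1 (0.51). H2-D1 measured 3287.5 and 2197.5 in STAT3KO cells, against 4940.5 and 4748 in WT cells. Class I genes resemble each other to differing degrees, and probe specificity could not be checked, so some of their probes may share signal.

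The 7 ubiquitin and ISG15 enzymes had a median of 0.28, with 6 above 0, among them Dtx3l (0.77, but −0.21 at a dimmer probe) and Trim56 (0.70). The 10 nucleic acid sensing genes had a median of 0.19, with 6 above 0. Dhx58, a regulator of RIG-I-like receptors (0.81), and the DNA exonuclease Trex1 (0.74) were higher by over 1.5-fold. The sensor adaptors Sting1 (−0.02) and Mavs (−0.28) were not. The 12 genes of ISGF3 and interferon signalling had a median of 0.08, with 7 above 0, and relative to all genes this median turned from 0.11 to below 0 (−0.05 at the lowest) when background was subtracted. Within that list Irf5 followed Irf7 (0.93), and Irf1 (0.48) and Irf9, the DNA-binding part of ISGF3 (0.26), were higher in both lines. Irf9 measured 1153 and 170.9 in STAT3KO cells, against 655 and 116.6 in WT cells. The kinase Jak2 (−0.52) and the receptor chains Ifngr1 (−0.26) and Ifnar2 (−0.23) lay below 0. The 28 other interferon-induced genes had a median of 0.13, with 18 above 0, and held both members past 1.5-fold downward, Gch1, an enzyme of tetrahydrobiopterin synthesis (−0.81), and the inflammatory caspase Casp4 (−0.62).

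The genes were also ranked by response without the lists. Over all 8148 genes, 31 had a mean response over both lines of at least 2-fold, and 28 of these were on an interferon list. The STAT3KO response was the larger in 28 of the 31 (90.3%, median difference 0.62), the exceptions being Helz2 (−0.12), Parp12 (−0.41) and Serpina3f. Among the 12 genes with a mean response of at least 4-fold, 11 had a larger STAT3KO response (median 0.75). Among the 19 between 2- and 4-fold it was 17 (median 0.48), and among the 32 between 1.5- and 2-fold it was 29 (median 0.51). In the 8072 genes within 1.5-fold the median was −0.03, with 44.5% above 0. The mean response and the difference come from the same arrays. The background left in the values compresses the folds of dim probes. When it was subtracted with limma (offset 16), 25 of the 31 were above 0 and the median was 0.31. Irf9 (−0.25), Parp9 (−0.69) and Lgals3bp then joined the 3 exceptions, and Samd9l was at 0.14 and Irgm1 at 0.26. With the 75th percentile, 14 of the 31 were above 0 and the median was −0.15, while 27 of the 31 were above the median of all genes.

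The 31 genes differed in where the lines stood before treatment. The STAT3KO level was above the WT level in 26 of them with IFNa and in 20 untreated, against 54.1% and 51.0% of all genes. At a 1.5-fold limit, 10 genes had like levels without IFNa and were higher in STAT3KO cells with it. These included Adar, Ifi47, Irf7, Uba7 and Dhx58. Another 9, among them Apol9a, Irgm1, Samd9l, Irf1 and Trex1, were already higher in untreated STAT3KO cells and stayed so. Ifit2 and Clec2d were lower untreated and higher with IFNa. Bst2, Cxcl10, Serpina3f and Tent5a were lower in STAT3KO cells under both conditions, and 6 genes, among them Helz2 and Daxx, were within 1.5-fold under both. Cxcl10, a chemokine that draws activated T cells, measured 1825 and 124.1 in STAT3KO cells, against 3102 and 336 in WT cells. Its fold was larger in STAT3KO cells (14.7 against 9.23), while its gain in intensity was smaller (1700.5 against 2766). The same held for Bst2, which gained 731 units in STAT3KO cells and 1223 in WT cells. Of 62 genes with a mean response of at least 1.5-fold and a rise in both lines, 56 had the larger fold in STAT3KO cells and 48 the larger gain in intensity.

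The genes with opposite responses formed the larger part of the calls. Of the 81 probes called higher, 65 were higher with IFNa in STAT3KO cells and lower with it in WT cells, with median responses of 0.63 and −0.63. Of the 22 called lower, 21 showed the reverse, with medians of −0.69 and 0.54. No interferon gene was among these 86 probes, though such genes were only 90 of 8148, and 38 of the probes carried no gene name. Many were among the brightest probes, by a limit of 14 on the log2 scale that was chosen after seeing the data. Of 203 probes with a mean log2 level of at least 14, 22 were called higher and 17 lower (19.2% in all), each with opposite responses, and the SD of the difference was 0.75, against 0.31 over all probes. In these 203 the responses of the lines ran against each other (r = −0.69), with opposite signs in 80.8%. Over all 13884 probes r was 0.15, with opposite signs in 56.5%. The dimmest probes, 3235 with a mean log2 level below 7, also ran against each other (r = −0.53, opposite signs in 69.1%). Over the 90 interferon genes r was 0.88. These correlations are across probes or genes that share the 4 arrays, and describe them only.

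Ribosomal protein genes gave calls in both directions. Rps28 measured 37731 and 22533 in STAT3KO cells, against 18801 and 40118 in WT cells (1.84), and Rps18 had the same form (1.64). Rps9 measured 37773 and 60870 in STAT3KO cells, against 44820 and 29528 in WT cells (−1.29), and Rps16 was alike (−1.24), but after cyclic loess normalization Rps9 was at 0.19 and Rps16 at 0.13. Over 27 listed ribosomal protein genes the median was 0.07, and it was 0.60 after cyclic loess. Of these genes, 5 were higher and 4 lower at 1.5-fold (2.82% and 1.62% of all genes). The list held neither Rps28 nor Rpl39, both called higher. Probes of the same gene did not move together here. The other probes of Rps9 gave −0.24, −0.64, 1.15 and 0.02, and the 2 probes of Rps20 gave −0.89 and 1.90. The largest difference of all 13884 probes, 4.46, was at a probe of the actin gene Actb that had 11641 and 5927 in STAT3KO cells, against 1006 and 11314 in WT cells. The other Actb probes gave 0.70 and −0.11. Of the 11 called genes with another member probe, only Adar passed 1.5-fold in the same direction at the next-brightest one.

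Some other called genes were bright too. The histone H2A gene H2ac6 measured 36899 and 57219 in STAT3KO cells, against 55505 and 30255 in WT cells (−1.51, and 0.078 after cyclic loess), while H2ac12 was called higher (1.20). The RNA-binding protein gene Ybx1 (−1.47), the ATP synthase subunit gene Atp5b (−1.12, and 0.29 after cyclic loess) and the glycolytic enzyme gene Pkm (−1.04) were called lower at their brightest probes. The other 3 Ybx1 probes gave 0.39 to 0.53. Pkm was the only gene past 2-fold of 31 on the hypoxia and glycolysis list (median 0.06), and Atp5b the only of 38 on the mitochondrial respiratory chain list (median −0.02). Scd2, a fatty acid desaturase (−1.14), measured 23021 and 45996 in STAT3KO cells, against 16320 and 14816 in WT cells, so that the change lay in the STAT3KO pair. Mgp, an inhibitor of calcification (−1.17), measured 1434 and 1989 in STAT3KO cells, against 729 and 450.5 in WT cells.

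Dimmer genes with opposite responses included the stress-induced gene Gadd45g, with 517 and 285 in STAT3KO cells, against 608 and 922 in WT cells (1.46), and the transcription factor gene Sox6, with 602 and 366 in STAT3KO cells, against 527.5 and 840 in WT cells (1.39). In both genes the response in either line was at least 1.5-fold. Inpp1, an inositol phosphatase gene, stood apart, because its WT response was near 0. It measured 726.5 and 254 in STAT3KO cells, against 160.6 and 165.7 in WT cells (2.86-fold against 0.969-fold, difference 1.56).

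In the 65 probes upward in STAT3KO cells only, the STAT3KO array with IFNa differed from the WT untreated array by a median of 0.15 (absolute log2), and the STAT3KO untreated array from the WT array with IFNa by 0.18. Over all 13884 member probes, the STAT3KO array with IFNa correlated with WT untreated at 0.934. The STAT3KO untreated array correlated with the WT array with IFNa at 0.937. The correlation was 0.938 between the arrays with IFNa and 0.935 between the untreated arrays. STAT3KO with IFNa and WT untreated detected 16096 and 16076 probes, against 17524 in STAT3KO untreated and 16814 in WT with IFNa. The deposited medians before normalization were 77.4 in STAT3KO with IFNa, 96.7 in STAT3KO untreated and 94.5 in WT with IFNa, and that of WT untreated is unknown. The part of these array differences in the opposite responses was not tested.

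Feedback and inflammatory genes did not follow the interferon genes as a group. Of 14 negative regulators of JAK-STAT signalling, 3 lay above 0 (median −0.16), with Socs1 at 1.09. Socs3, the feedback inhibitor that STAT3 induces, measured 413 and 436 in STAT3KO cells, against 2367 and 1604 in WT cells (−0.64). The 21 chemokine and cytokine genes had a median of −0.11, with 8 above 0. Ccl7, a monocyte chemoattractant, measured 1300.4 and 1554 in STAT3KO cells, against 7021 and 4202 in WT cells (−0.997). Ccl20 (−0.96) and the neutrophil chemokine Cxcl1 (−0.91) were lower with IFNa in STAT3KO cells. Cxcl1 measured 7985 and 13902 there, against 2129 and 1976 in WT cells. Relative to all genes, the chemokine median was −0.08, and it became 0.15 with the arrays scaled to their 75th percentile.

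The 34 NF-kB targets had a median of −0.12, with 15 above 0. The 39 STAT3 targets had a median of 0.05, with 21 above 0, and 4 each past 1.5-fold upward and downward (2.82% and 1.62% of all genes). Gadd45g (1.46) and Zfp36, which destabilises cytokine transcripts (0.83), were at the upper end, and Lcn2 (−0.73) and Bcl3 (−0.68) at the lower. Relative to all genes this median was 0.08, and it fell below 0 with the 75th percentile and with probes detected on any array (−0.07 at the lowest). The 44 immediate-early genes were centred at −0.04.

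Among growth and metabolic lists, sterol and fatty acid synthesis was lowest, with a median of −0.18 and 6 of 28 genes above 0. After Scd2 came Acss2, which makes acetyl-CoA (−0.70), Scd1 (−0.64) and the sterol pathway enzyme Hmgcs1 (−0.59). Hmgcs1 measured 4325 and 6196 in STAT3KO cells, against 4561 and 4338 in WT cells, so that the WT pair was close. Replication and mitosis genes had a median of 0.15, with 33 of 43 above 0 and 3 past 1.5-fold upward (2.82% of all genes), the ribonucleotide reductase subunit Rrm1 (0.83), thymidylate synthase Tyms (0.68) and Gins2 (0.66). Rrm1 measured 1829 and 1251 in STAT3KO cells, against 1427 and 1733 in WT cells, again in opposite directions. Relative to all genes, both medians kept their sign under 11 alternatives, at −0.24 to −0.14 and 0.04 to 0.22. The 34 genes of the integrated stress and unfolded protein response had a median of 0.07. Their largest difference was in Ddit3, a stress-induced transcription factor gene (0.88), which measured 255 and 299 in STAT3KO cells, against 498 and 1074 in WT cells. The 25 extracellular matrix genes had a median of −0.08, with 7 above 0, and the 13 fibroblast markers a median of −0.03.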

How the data were processed

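RNA from the 4 groups was read on Illumina bead arrays for mouse genes, per the labels' protocols. The authors deposited a linear normalized intensity for each probe, without background subtraction, and a table of non-normalized intensities that also gives every probe a detection score, per the file headers. BeadStudio 3.2.3 is named in the submitters' processing notes, and how the values were normalized was not given in the sources used here. In the non-normalized table, the WT untreated column already held the normalized values. The normalized intensities had a median of 75 on each array and were taken to log2 with no pseudocount. Background is still in them, so folds of dim probes are understated.

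Probes were named from the platform table with RefSeq symbols (GRCm38.p6): 29921 by Entrez ID, 12 by accession and 43 by the platform symbol, while 10 had several genes and 16646 none. The brightest member probe stood for each gene. Named genes were Stat3, every gene past 2-fold in the difference (up to 40 in each direction), the members of each gene list with the largest differences (up to 6) or needed to describe it, and up to 5 of each class of levels. The members and lists were chosen with earlier results of these data known, so the lists support nothing on their own. Gene lists are described by medians and counts, beside the same over all genes.

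The alternatives were normexp background correction from the detection score with quantile normalization (offsets 16 and 50), quantile normalization alone, cyclic loess and 75th percentile scaling of the non-normalized table, log2(value + 16), detection on at least 1 array, a mean log2 level of at least 8, a lowess correction over level, and the mean of all probes of a gene. Leaving out probes with a mean log2 level of 14 or more was added after seeing the data. Analyses used limma 3.58.1 in R 4.3.3, and pandas 2.3.3, numpy 2.4.6 and statsmodels 0.14.6 in Python 3.11.15. The calculation was tested on simulated data.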

Additional observations from a re-analysis of the deposited data

Results flagged for a closer look

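In 11 genes past 2-fold, the responses of the lines went opposite ways, each by at least 1.5-fold. With 1 array per group, none of these differences was tested. Upward in STAT3KO cells and downward in WT cells were Rps28 (log2 difference of responses 1.84), Olfr448 (1.71), Rps18 (1.64), Gadd45g (1.46), Sox6 (1.39), Gdpd4 (1.37) and Pkd1l2 (1.29). The olfactory receptor gene Olfr448 measured 563 with IFNa and 331 untreated in STAT3KO cells, against 333 and 641 in WT cells. Downward in STAT3KO cells and upward in WT cells were H2ac6 (−1.51), Ybx1 (−1.47), Ginm1 (−1.34) and Rps9 (−1.29). Ginm1, a membrane glycoprotein gene, measured 824 and 1369 in STAT3KO cells, against 1916 and 1261 in WT cells. After cyclic loess Ginm1 was at −1.40, Ybx1 at −0.35, Rps9 at 0.19 and H2ac6 at 0.078. Rps28, Rps18, H2ac6, Ybx1 and Rps9 had mean log2 levels of at least 14, where 19.2% of probes passed 2-fold.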

How the results depend on the processing

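No paired analysis was possible because each combination of genotype and treatment has 1 array, and no array could be left out. The count of probes called higher (81) became 804 and 225 after background correction (offsets 16 and 50) and 140 after cyclic loess. The count called lower (22) became 195 after background correction with offset 16, 9 after quantile normalization, 1854 with the 75th percentile, 7 after cyclic loess, and 5 without probes at a mean log2 level of 14 or more. With the 75th percentile, which moved the median of all genes to −0.67, the interferon median was −0.38 and 28 of 90 interferon genes lay above 0, with 67 above the median of all genes. With detection on at least 1 array, 108 of 144 lay above 0. That setting admits genes through the array where they are high, 11 in STAT3KO with IFNa only and 3 in WT with IFNa only. Its count therefore supports nothing on its own. Among values of at least 1.5-fold, the sign also turned with the 75th percentile for the antiviral effectors (−0.015), Atp5b (0.043), Daxx (−0.31), Irgm1 (−0.093), Isg20 (−0.15), Samhd1 (−0.015) and Trex1 (−0.21). Among smaller values it turned there for antigen presentation (−0.35), nucleic acid sensing (−0.21), ubiquitin and ISG15 enzymes (−0.083), other interferon-induced genes (−0.59), ISGF3 and interferon signalling (−0.52), Eif2ak2 (−0.81), Irf1 (−0.45), Irf9 (−0.41) and Pml (−0.71), among others. With cyclic loess it turned for Atp5b (0.29), H2ac10 (0.19), H2ac6 (0.078), Rps16 (0.13) and Rps9 (0.19). Without probes at 14 or more, another probe stood for Esd (0.088), Rps9 (0.023) and Ybx1 (0.39). Of the values of single genes and lists over all alternatives, 93 of 1546 changed sign, 55 of them with the 75th percentile (15 lists and 40 genes), and 15 of the 93 had been at least 1.5-fold. The 1546 include settings that could hardly move a gene. The limit of 8 on the mean log2 level leaves the value of each kept gene unchanged. Detection on at least 1 array changes it only where a brighter probe comes in. The cause of the changes under other scalings was not tested.

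Of the 9 interferon genes called higher, 9 stayed past 2-fold under background correction, quantile, cyclic loess and lowess, 8 with log2(value + 16), and 3 with the 75th percentile, where 5 passed 1.5-fold. This was not particular to interferon genes. Of the 22 other genes called higher, 21 stayed past 2-fold under background correction and quantile, 20 under cyclic loess and 22 under lowess. It was 17 with log2(value + 16), and 5 with the 75th percentile, where 11 passed 1.5-fold. The limit of 8 on the mean log2 level kept 8 of the 9 interferon genes with unchanged values, so it could not move them. Across the alternatives Ifit2 ranged from 1.40 to 2.44, Clec2d from 1.13 to 2.14, Irf7 from 1.05 to 1.45 and Serpina3f from −1.85 to −1.53. Adar had its lowest value, 0.24, and Bst2, 0.29, with the 75th percentile. Of the 14 genes called lower, 5 or 6 stayed past 2-fold under background correction, quantile, cyclic loess or the 75th percentile. Signal over background limits the dim probes: untreated intensities near 100 (Irf7, Irf9, Dhx58) lie close to the array median of 75, and their folds depend on how background is treated. Having 1 array per group limits every value.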

Other observations

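Among the 88 interferon genes left out for lack of detection on some array, 34 were detected on no array, 17 on all but WT untreated, 11 in STAT3KO with IFNa only and 8 on both arrays with IFNa only. Rsad2, whose product viperin makes a chain-terminating nucleotide, measured 12076 in STAT3KO with IFNa and 117.7 in STAT3KO untreated, against 1272 in WT with IFNa and 75.6, not detected, in WT untreated. Its neighbour Cmpk2 measured 4733.5 and 105.5 in STAT3KO cells, against 707 and 86.8 in WT cells, the last not detected. Mx2, an antiviral dynamin-like GTPase, measured 2486 with IFNa in STAT3KO cells and 194 in WT cells, with neither untreated array above the limit. The guanylate-binding proteins were among them too. Gbp3 measured 2724 and 313 in STAT3KO cells, against 291 and 78.4, not detected, in WT cells. Gbp2b measured 3360 and 342 in STAT3KO cells and was detected on neither WT array (73.5 and 75.8). STAT2, a part of ISGF3, was in the same class, since Stat2 measured 734 and 113.8 in STAT3KO cells, against 335 and 77.5, not detected, in WT cells.

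Other genes were found in WT cells alone. The DNA sensor gene Cgas measured 67.5 and 65.9 in STAT3KO cells, not detected, against 1831 and 1184 in WT cells. Trim25, a ubiquitin ligase gene of RIG-I signalling, measured 67.0 and 63.8, not detected, against 1604 and 216 in WT cells. For such genes the response of an undetected line is not measured, so no difference of responses is given.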
